A study of Homo sapiens with 15 samples.

Results

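RNA crosslinked to RNA polymerase II (RNAPII) was set against the total nuclear RNA of the same cell line, gene by gene. Of the 15 samples of the series 3 entered this comparison: 1 RNAPII PAR-CLIP library made with 4-thiouridine (4SU), and replicates 1 and 2 of total nuclear RNA-seq. The genes were the 14432 genes whose Regions (gene spans, hg19) the deposited ChIP table lists, and 8932 of them were tested because they reached a per-million value of 5 in the 4SU library or in the mean of the RNA libraries. All 3 samples were HEK293T T-REx cells, a human embryonic kidney line built for tetracycline-controlled transgenes, and the labels give the transgene as none in all 3. The 2 PHC1 PAR-CLIP libraries, from cells that carry a PHC1 transgene, were not compared but entered the scaling and the estimate of the spread. For the 4SU library, cells kept overnight in 100 uM of the nucleoside were irradiated at 365 nm with 0.15 J/cm2, lysates were digested with RNase T1, and the reagent named is an antibody to the RNAPII C-terminal domain, although the protocol text of the same label describes streptavidin beads. The nuclear RNA came from nuclei of crosslinked cells with no treatment listed, and was depleted of ribosomal RNA and made into stranded libraries. The 2 sides thus differ in assay, nucleoside, enrichment and the fraction of the cell taken, and these cannot be told apart.

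PAR-CLIP joins photoreactive nucleosides in RNA to the protein that touches them, so RNA under or near transcribing polymerase is recovered as short clusters of reads. RNAPII makes the precursors of messenger RNAs and many noncoding RNAs. In general the amount of polymerase-bound RNA of a gene follows how much polymerase is on it, while the amount of its nuclear RNA also follows how fast that RNA is processed, exported and degraded. Short-lived messages such as those of immediate early genes are the textbook case of much synthesis for little RNA, and messages of ribosomal proteins, metabolic enzymes and the cytoskeleton are the textbook case of long-lived RNA.

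The 4SU library held 667937 clusters over 25.0 Mb at a mean coverage of 45.3, and 56.0% of its clusters lay in a Region. The RNA libraries held 47187882 and 49626658 reads in genes. The 10 deepest clusters held 4.07% of the 4SU coverage, and 3841 of the 14432 genes had no 4SU cluster. Of the genes taken as markers of this kind of line, VIM, NEFL and INA had from 49.3 to 925 CPM, PAX2 and LHX1 had from 4.09 to 8.36, and NEFM had 0.381 and 0.121. The markers listed in the table for fibroblasts, hepatocytes, blood cells and keratinocytes summed to at most 2.29 CPM in either RNA library, with COL1A1 highest, and none of them was tested. In the 4SU library the blood and keratinocyte markers were at 0, while the fibroblast and hepatocyte markers summed to 1.78 and 3.4 per-million units.

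Polymerase-bound and nuclear RNA ranked genes alike but not equally. Both sides are given as TMM-scaled per-million values, summed cluster coverage for 4SU and reads for RNA, so a value compares a gene's share of the 2 kinds of library and not molecules. Across the 8932 genes Spearman's rho was 0.79 between the 4SU library and the RNA mean, and 0.76 when both were divided by Region length, while the RNA libraries had 0.999 with each other. Genes are not independent replicates, so these carry no p. The median log2 fold of 4SU over nuclear RNA was -0.08, with quartiles at -1.06 and 0.81. A gene was called when its Benjamini-Hochberg adjusted p from limma was under 0.05 and its log2 fold was at least 1 in size. By that rule 1739 genes (19.5% of those tested) were higher in the 4SU library and 2130 (23.8%) were lower.

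**Figure D1:**
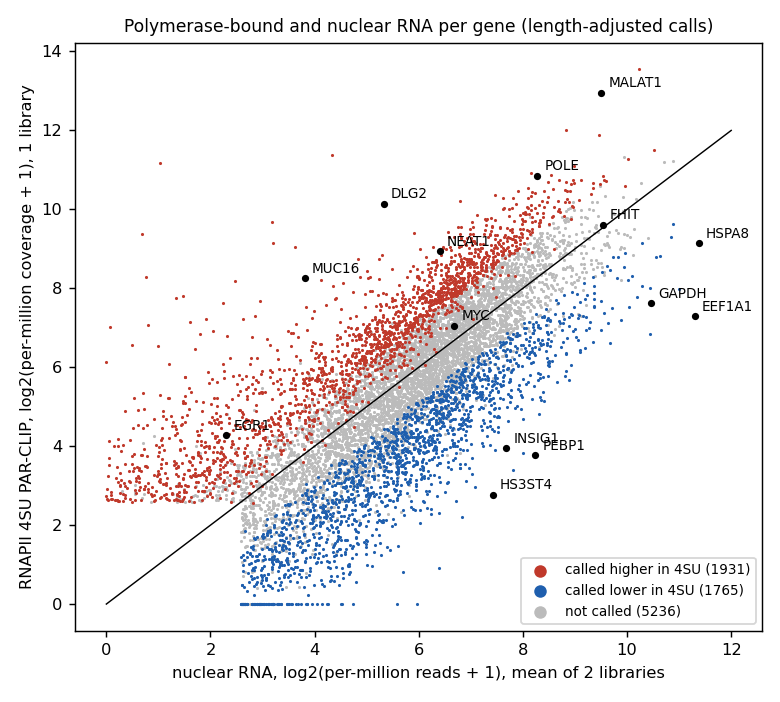
Each point is 1 of the 8932 genes tested, with the RNAPII 4SU PAR-CLIP value on the vertical axis and the mean of the 2 nuclear RNA libraries on the horizontal axis, both as log2(per-million + 1), and the diagonal marks equal values. The 1931 genes called higher after adjustment for Region length (red) and the 1765 called lower (blue) flank 5236 genes not called, and named genes such as MALAT1 and GAPDH lie on opposite sides of the diagonal.

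The depth of support behind these calls is uneven. The 4SU side is 1 library, so its spread was taken from the PHC1 PAR-CLIP pair and the RNA pair, whose robust SDs between replicates were 0.25 and 0.05 on the log2 scale. Without nuclear RNA replicate 1, or without replicate 2, no gene was called in either direction by limma. With the RNAPII library made with 6-thioguanosine (6SG) joined to the 4SU library as a pair, 524 genes were higher and 421 lower.

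Region length moved with the fold. In the decile of genes with the shortest Regions, with a median of 3.49 kb, the median log2 fold was -1.02, and 45.6% of genes were called lower. The median fold was -0.38 at 13.7 kb, -0.02 at 29.0 kb and 0.20 at 81.6 kb, and reached 0.30 at 126 kb, where 13.3% were called lower. It was 0.13 in the decile of longest Regions, with a median of 269 kb. Spearman's rho of fold and length was 0.22 across genes. Short genes thus had less polymerase-bound RNA for their nuclear RNA, and beyond about 40 kb the medians were close together.

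After the smooth trend over length was taken out of the 4SU values, the medians of the 10 deciles lay between -0.04 and 0.10 and rho was -0.006. The adjusted fit called 1931 genes higher (21.6%) and 1765 lower (19.8%), 1605 higher (18.0%) and 1657 lower (18.6%) by both fits. Of the genes lower before, 473 were no longer called lower, and 326 genes were called higher only after the adjustment. Of the calls of the adjusted fit, 403 higher genes had reached the minimum only on the 4SU side and 551 lower genes only on the RNA side. Those had to differ, and 1527 higher and 1214 lower genes were left among the 7614 genes at or above the minimum on both sides. Length-adjusted log2 folds are given from here on unless a fold is called unadjusted.

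**Figure D2:**
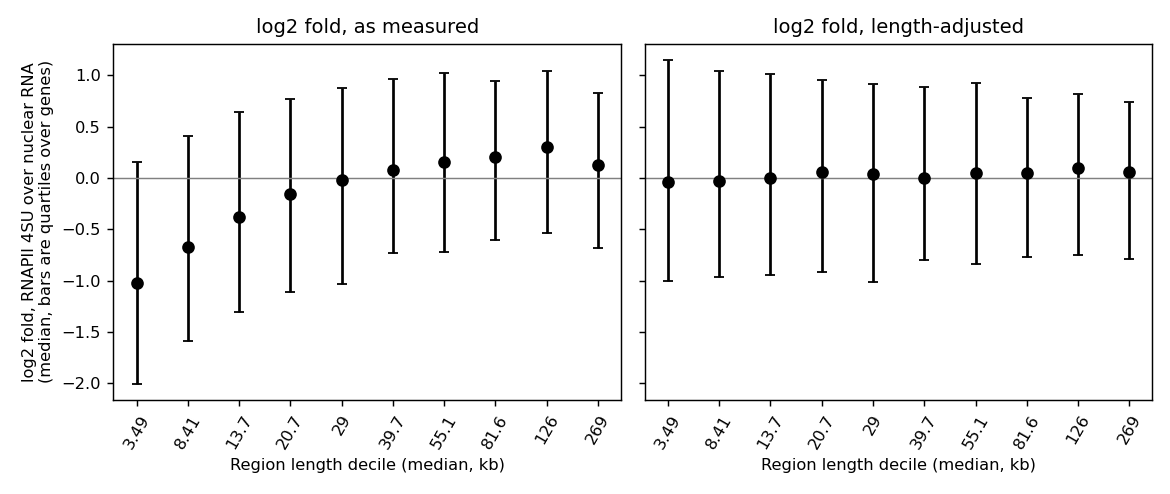
Log2 fold of RNAPII 4SU PAR-CLIP over nuclear RNA by decile of Region length (horizontal axis, median length in kb), as measured on the left and after length adjustment on the right. Points are medians and bars the quartiles over 893 or 894 genes each, and the left medians climb from -1.02 at 3.49 kb to 0.30 at 126 kb, while the right medians stay near 0.

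The number of clusters per gene is a second reading of the same library, and it gave other results for highly expressed genes. Among the 7614 genes measured on both sides, the median length-adjusted fold of coverage was 0.69 in the decile with the least nuclear RNA, between -0.08 and 0.12 in the 8 deciles above it, and -0.13 in the decile with the most. On cluster numbers the same medians were 1.13 and -1.04 at the ends. The median gene had 10 clusters at a median mean coverage of 21.5 at the low end, and 101 clusters at 48.9 at the high end. Of the 1931 genes called higher on coverage, 1063 were also higher on cluster numbers and 13 were lower. Of the 1765 called lower, 1025 were also lower and 0 were higher. Where the 2 readings of a gene group differ in sign, both are given below.

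Immediate early and other short-lived messages did not stand high as a group. The table listed 53, of which 47 were tested, and 5 were higher, 5 lower and 37 neither. Their median was -0.18 against 0.03 over all genes, and on cluster numbers -0.16. These are mostly compact genes, with a median Region of 4.20 kb, and before the adjustment 2 were higher and 18 lower, and their median was -0.97. Of the 34 that reached the minimum on both sides, 3 were higher and 2 lower. Of the 47 tested, 10.6% were higher and 10.6% lower, against 21.6% and 19.8% of all genes, so a smaller share was called in each direction. Members at both ends are named next.

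PPP1R15A, which encodes a stress-induced phosphatase subunit, was the highest, with 107 per-million units in the 4SU library against 21.0 and 21.8 in nuclear RNA. Its log2 fold was 3.25 ± 0.62 (SE; limma adjusted p = 0.0151). EGR1, a zinc finger transcription factor of the serum response, had 18.4 against 4.04 and 3.81, and a fold of 2.95 ± 0.32, and it was tested only because its 4SU value reached the minimum, so it had to differ. MYC, the growth-promoting transcription factor, had 132 in the 4SU library against 101 and 102 in nuclear RNA. Its adjusted fold of 1.18 ± 0.13 was called by limma (adjusted p = 0.00396) while its unadjusted fold of 0.38 was not, and on cluster numbers it was -0.53. JUN had 139 against 170 and 166, with a fold of 0.75 ± 0.37 that was not called and was -1.07 on cluster numbers. FOS rested on 3 clusters, at 2.07 against 6.32 and 5.14. DUSP4, a phosphatase of the MAP kinase pathway, was the lowest, with 0.738 from 1 cluster against 22.6 and 22.2. FOS and DUSP4 were tested only because of their nuclear RNA, so their unadjusted folds had to be below 0. In these cells the early genes ranged from above to far below their nuclear RNA, and MYC and JUN were within about 1.5 times of it before adjustment.

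Among 6 groups of housekeeping messages, 75 of 176 genes tested (42.6%) were lower in the 4SU library, against 19.8% of all genes, and 0 were higher. They are cytoplasmic ribosomal proteins, the respiratory chain, glycolysis, the cytoskeleton, the proteasome and chaperones. Each had 0 members higher, so the pooled 0 and the 42.6% depend on which groups were taken. Translation factors, with 2 higher and 7 lower of 18, and mitochondrial ribosomal proteins, with 1 and 8 of 54, were not pooled. Their shares lower were 38.9% and 14.8%, the latter under the 19.8% of all genes. Among the cytoplasmic ribosomal proteins 0 were higher and 17 lower of 44 tested, with a median of -0.66, and before adjustment 34 were lower with a median of -1.63. On cluster numbers the median was -2.14. RPLP0, a protein of the ribosomal stalk, had 121 per-million units in the 4SU library against 510 and 488 in nuclear RNA, and a fold of -1.12 ± 0.18 (limma adjusted p = 0.00928). The members at the top, middle and bottom of the list were RPL22L1 at 0.83, RPL7L1 at -0.67 and RPS27L at -3.0, which encode relatives of the ribosomal proteins rather than core subunits. RPL22L1 was at -0.04 on cluster numbers. RPS27L had 3.91 from 2 clusters against 75.8 and 73.5, and it was tested only because of its nuclear RNA, so it had to differ. Many of these genes have processed pseudogenes elsewhere in the genome, and how short reads that match both were placed is not given in the sources used here.

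Nuclear genes of the respiratory chain showed the same direction, with 0 higher and 25 lower of 53 tested and a median of -0.99. SDHD, a membrane anchor subunit of succinate dehydrogenase, was the lowest, at 3.15 against 64.3 and 63.8, with a fold of -3.40 ± 0.13. It was tested only because of its nuclear RNA value, so it had to lie below that RNA. ATP5MC2, a proton-channel subunit of ATP synthase, stood at the middle with 47 against 129 and 129, and NDUFV1 of complex I was the highest with 119 against 111 and 103. Glycolysis genes had 0 members higher and 7 lower among 14, and their median was -1.21. GAPDH, the classical housekeeping enzyme, had 196 in the 4SU library against 1440 and 1360 in nuclear RNA, with a fold of -1.87 ± 0.26. LDHA, the lactate dehydrogenase subunit, was lowest with 48.3 against 387 and 420, while ENO2, the neuronal type enolase, had 49.3 against 40.3 and 42.9 and was not called.

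The cytoskeleton list had the lowest median of all lists shown, at -1.37, with 0 higher and 11 lower of 21. TUBA1B, an alpha tubulin, had 114 per-million units in the 4SU library against 1391 and 1372, and TUBA1C 82.4 against 542 and 552. ACTB had 138 against 759 and 819, with a fold of -1.50 ± 0.21 (limma adjusted p = 0.00704). Proteasome subunits had 0 members higher and 10 lower among 23, and their median was -0.89, and heat shock proteins and chaperones 0 members higher and 5 lower among 21, and their median was -0.47. That share of chaperones lower, 23.8%, was close to the 19.8% of all genes. HSPA8, the constitutive cytosolic chaperone, had 563 against 2699 and 2601, and PSMB6, a catalytic core subunit, 7.41 against 93.9 and 91.7. In TUBA1B, TUBA1C, ACTB, HSPA8 and PSMB6 the 4SU value lay well under both RNA values. The fold was above 0 in 4 of the 21 cytoskeleton genes, 7 of the 23 proteasome subunits and 3 of the 21 chaperones. None of these was called higher. They include PSMD7 of the proteasome at 0.90, and the chaperone HSPA5 at 0.54, with 195 against 211 and 243. On cluster numbers PSMD7 and HSPA5 were at -0.43 and -1.37, and with the 6SG library joined at 0.07 and -2.67.

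Translation factors were divided, with 2 higher and 7 lower of 18 and a median of -0.29 that became 0.19 with the 6SG library joined. EEF1A1, which brings aminoacyl-tRNA to the ribosome, was lowest with 156 against 2595 and 2453 and a fold of -3.16 ± 0.29. EIF2S2, a subunit of the initiator tRNA carrier, was highest with 472 against 217 and 218 and a fold of 1.24, which was -0.45 on cluster numbers. Mitochondrial ribosomal proteins, a list chosen after their values were seen, had 1 member higher and 8 lower among 54, and their median was -0.22.

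Genes of lipid synthesis and of membrane and secreted proteins were often lower. Cholesterol and fatty acid synthesis had 1 member higher and 10 lower among 23, and their median was -1.14. INSIG1, which holds the sterol sensor complex in the endoplasmic reticulum, had 14.5 per-million units in the 4SU library against 213 and 195 in nuclear RNA, and a fold of -3.31 ± 0.71 (limma adjusted p = 0.0202). Its relative INSIG2 stood at the other end with 50.3 against 16.9 and 18.4, a fold of 1.64 that turned to -0.67 with the 6SG library joined. Collagens, laminins and other matrix genes had 3 members higher and 10 lower among 28, and their median was -0.84, and COL4A1 of basement membrane had 21.9 against 172 and 155.

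Among lists chosen after their values were seen, solute carriers had 14 members higher and 53 lower among 153 tested, and their median was -0.71, or 7 and 30 among the 118 that reached the minimum on both sides. Genes with TMEM symbols had 14 and 36 of 106 with a median of -0.75, or 6 and 27 of 83 on both sides, and the vacuolar proton pump 0 and 6 of 12 with a median of -0.94. ATP6AP2, an accessory subunit of that pump, had 8.90 against 127 and 129. p53 targets had 1 higher and 6 lower of 20, or 1 and 4 of the 18 on both sides. CDKN1A, the cell cycle inhibitor p21, was the lowest at 4.46 against 58.9 and 55.2, and DDB2, a DNA damage recognition protein, the highest at 87.5 against 45.9 and 43.8. CDKN1A was tested only because of its nuclear RNA, so it had to differ. MDM2, which marks p53 for degradation, had 641 against 464 and 476 and a fold of 0.38 that was not called and was -1.06 on cluster numbers.

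In the opposite direction, genes of cell division and of RNA processing had more coverage in the 4SU library. Mitosis genes had 17 members higher and 1 lower among 31, and their median was 1.10. CENPE, a kinetochore motor, had 1323 per-million units in the 4SU library against 173 and 178 in nuclear RNA, from 197 clusters, and a fold of 2.72 ± 0.14 (limma adjusted p = 0.00136). UBE2C, the ubiquitin-conjugating enzyme of mitotic exit, stood in the middle with 86.6 against 77.0 and 77.0, and MAD2L1, a spindle checkpoint protein, was the lowest with 22.0 against 126 and 124. On cluster numbers the median of the list was -0.14, with 0 higher and 5 lower, so its direction depended on how the library was read. Kinesins, a motor family chosen after its values were seen, had 15 higher and 3 lower of 29 and a median of 1.02, or 0.14 on cluster numbers.

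DNA replication genes had 7 members higher and 2 lower among 31, and their median was 0.61, which was -0.21 on cluster numbers with 1 higher and 5 lower. The share called higher, against 21.6% of all genes, was 22.6%. POLE, the leading strand polymerase, had 1853 against 300 and 318, and a fold of 2.46 ± 0.14. FEN1, the flap endonuclease, had 35.4 against 169 and 163 and a fold of -1.29 ± 0.26 (limma adjusted p = 0.0183).

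SR proteins, CLK kinases and related splicing regulators had 12 members higher and 0 lower among 24, and their median was 0.98. SRRM1, a coactivator of splicing, had 930 against 129 and 147 and a fold of 2.76 ± 0.22. SRSF1 had 749 against 663 and 672, and SRSF3 303 against 568 and 591, neither of them called. Spliceosome and hnRNP genes had 17 members higher and 3 lower among 36, and their median was 0.94. SNRPD2, an Sm core protein, had 23.2 per-million units in the 4SU library against 158 and 145 in nuclear RNA. On cluster numbers the medians of the 2 lists were -0.30 and -0.61, with 0 higher and 8 lower, and 2 higher and 11 lower.

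RNAPII subunits and elongation factors had 14 members higher and 0 lower among 32, and their median was 0.75, or -0.02 on cluster numbers with 4 higher and 1 lower. POLR2A, the largest subunit of the enzyme itself, was the highest, with 418 against 83.2 and 75.1 and a fold of 2.40 ± 0.20 (limma adjusted p = 0.00219). CTR9, of the PAF1 elongation complex, had 110 against 66.2 and 79.9, and POLR2K, a small subunit shared by the nuclear polymerases, 12.6 against 48.4 and 49.4. Integrated and endoplasmic reticulum stress genes had 6 members higher and 3 lower among 22, and their median was 0.54, or -0.01 on cluster numbers. Those shares, 27.3% and 13.6%, were not far from the 21.6% and 19.8% of all genes. CHAC1, a glutathione-degrading enzyme of that response, had 21.7 against 1.49 and 1.31 and entered only through its 4SU value, and 87.7% of its 4SU coverage lay in 1 cluster, while TRIB3 had 5.18 against 49.6 and 44.5. Polycomb subunits were near the middle, with 3 higher and 1 lower of 23 and a median of 0.13, or -0.07 on cluster numbers. SUZ12, a core subunit of PRC2, had 649 against 192 and 207 and a fold of 1.58 ± 0.10, and EED 68.4 against 57.9 and 64.2.

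**Figure D3:**
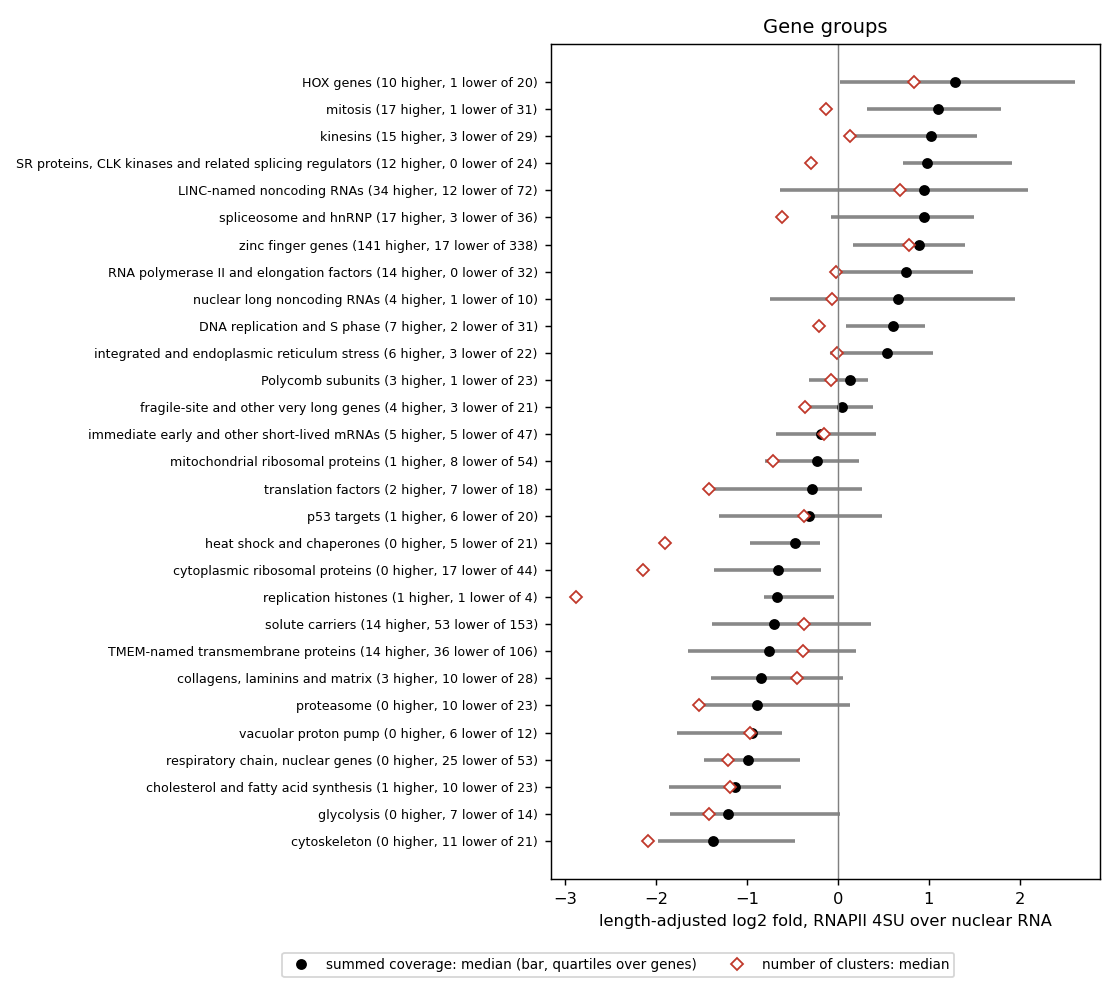
Median length-adjusted log2 fold of RNAPII 4SU PAR-CLIP over nuclear RNA for gene groups, from summed coverage (black points, bars are the quartiles over genes) and from cluster numbers (open red diamonds). Labels count the members called higher and lower of those tested. Zinc finger genes lie right of 0 by both readings at 0.89 and 0.78, metabolic and cytoskeletal groups lie left of 0 by both, and mitosis and splicing groups lie on opposite sides.

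Zinc finger genes, many of them repressors that bind DNA, were the largest group with more polymerase-bound RNA by both readings. The table listed 402, of which 338 were tested and 300 reached the minimum on both sides, and 141 of the tested (41.7%) were higher and 17 lower, against 21.6% and 19.8% of all genes. Of the 300, 123 (41.0%) were higher and 10 lower, against 20.1% and 15.9% of all genes measured on both sides. Their median was 0.89 on coverage, and on cluster numbers it was 0.78 with 117 higher and 10 lower. The median member, ZNF789, had 66.1 per-million units in the 4SU library against 42.8 and 46.1 in nuclear RNA, and ZNF141, the lowest, had 8.82 against 65.5 and 65.2. Many zinc finger genes are similar in sequence, so placement of short reads among them is uncertain.

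On chromosome 19, which is rich in such genes, 34.6% of 625 genes were higher and 9.92% lower, the widest split of any chromosome. Among its 164 zinc finger genes 74 were higher and 2 lower, and their median was 0.99, while the other 461 genes there had 142 higher and 60 lower with a median of 0.29. Chromosomes 16 and 17 had 28.5% and 28.1% higher, and chromosomes 3, 6, 8 and 4 had from 14.5% to 15.5% higher. HOX genes, a list chosen after its values were seen, had 10 members higher and 1 lower among 20, and their median was 1.29, or 0.83 on cluster numbers, and 8 of the 15 measured on both sides were higher. HOXC8 had 93.0 from 21 clusters against 7.32 and 8.42.

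A larger share of noncoding than of coding genes was called higher, which was not tested as a difference. Of 198 lncRNA genes 74 were higher and 22 lower, and their median was 0.60, or 43 and 12 of the 126 measured on both sides. Of 8528 protein coding genes 1738 were higher and 1730 lower. Of 182 transcribed pseudogenes 110 were higher and 11 lower, and their median was 1.44, or 70 and 6 of the 124 measured on both sides. These share sequence with parent genes by nature, so their values are uncertain. In a list of 10 lncRNAs drawn up as nuclear, which also holds the cytoplasmic NORAD, 4 were higher and 1 lower, at a median of 0.66. On cluster numbers that median was -0.06, with 1 higher and 1 lower. MALAT1, a speckle RNA, had 7953 per-million units in the 4SU library against 607 and 843 in nuclear RNA, on chr11:65265233-65273939 of hg19. Its fold was 4.07 ± 0.42 (limma adjusted p = 0.00336) on coverage and -1.54 on its 98 clusters.

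NEAT1, the scaffold RNA of paraspeckles, had 490 against 81.9 and 84.9 and a fold of 2.72 ± 0.14. NORAD, which acts in the cytoplasm by binding Pumilio proteins, was the lowest of that list, with 40.2 against 317 and 348 and a fold of -2.17 ± 0.22 (limma adjusted p = 0.00317). Of genes with LINC symbols, chosen after their values were seen, 34 of 72 were higher and 12 were lower, at a median of 0.95, but the minimum was reached on both sides by 44, of which 15 were higher and 7 lower, at a median of 0.52. LINC00273 is listed at 0 reads in both RNA libraries, with 69.1 per-million units in the 4SU library from 6 clusters. It was tested only because of that 4SU value. Of 2 snoRNA host genes tested, SNHG10 had 34.4 against 357 and 316 and SNHG33 5.78 against 9.69 and 9.58. Of 4 replication histone genes, which are close copies of each other and therefore uncertain, H3C10 was lower, at 70.0 against 384 and 340.

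Very long genes, several of them at common fragile sites, were balanced. Of 21 tested 4 were higher and 3 lower, and the median was 0.05, or -0.37 on cluster numbers. FHIT, with a Region of 1502 kb, had 781 per-million units in the 4SU library against 746 and 735 in nuclear RNA and a fold of 0.10 ± 0.18, and CSMD1 had 54.2 against 52.6 and 54.8. WWOX had 451 against 253 and 243, with a fold of 0.88 ± 0.08 that stayed under the size required. PTPRD, with the longest Region of the table at 2298 kb, had 253 against 2154 and 1940 and was lower at -2.97 ± 0.38 (limma adjusted p = 0.0055). The trend over length was already taken out of these folds, so they cannot show whether length orders these genes.

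The genes at the ends of the range were named within 3 classes of Region length, divided at 19.4 and 58.7 kb, from genes called by both fits and measured on both sides with 5 or more clusters. Among the short genes the highest were CLK2P1, HOXC8, TAF1L and TMEM107, at 5.19, 4.40, 4.20 and 4.18. CLK2P1 is a pseudogene of the splicing kinase CLK2 and TAF1L a retrocopy of TAF1, so both values are uncertain. TMEM107, which encodes a protein of the ciliary transition zone, had 238 per-million units in the 4SU library against 26.8 and 24.6 in nuclear RNA. Its 2 deepest clusters, on the minus strand at 8076829 to 8076847 and 8076862 to 8076889 of chromosome 17 (hg19), held 44.6% and 24.5% of its coverage. TMEM107 is known to carry the U8 snoRNA gene, SNORD118, at its end, and whether these clusters belong to that RNA was not tested. On cluster numbers its fold was 0.57.

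The lowest short genes were PEBP1, TMEM19, VMA21 and MARCKS. PEBP1, an inhibitor of RAF kinase signalling, had 12.7 per-million units in the 4SU library against 314 and 286, and a fold of -3.91 ± 0.12 (limma adjusted p = 0.00126). MARCKS, a substrate of protein kinase C at the membrane, had 9.49 against 226 and 218, and VMA21, an assembly factor of the vacuolar proton pump, 13.3 against 262 and 246. TMEM19 had 5.10 against 107 and 101. In all 4 the 4SU value lay far under both RNA values.

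Of genes of middle length, NPIPA3, LRTM3, ZDHHC11 and C20orf96 were highest, with folds from 3.86 to 4.61. NPIPA3 belongs to a family of near-identical copies on chromosome 16 and ZDHHC11 has a close copy beside it, so both are uncertain. LRTM3 had 157 in the 4SU library from 100 clusters against 5.53 and 6.89, and C20orf96 105 from 30 clusters against 7.43 and 7.51. CMTM6, a partner of PD-L1 at the cell surface, was the lowest with 6.84 against 138 and 130 and a fold of -3.92 ± 0.22. ADGRE3, ATP6AP2 and SRPRB, a subunit of the signal recognition particle receptor, followed with folds from -3.76 to -3.42.

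Of the long genes, MUC16, LRRC37A3, TXNL4A and NOSTRIN were highest. MUC16, the mucin known as CA125, had 304 from 196 clusters against 13.0 and 12.9, and its deepest cluster held 1.99% of that coverage. LRRC37A3 is one of several near-identical copies and is uncertain. TXNL4A, a protein of the U5 snRNP, had 1176 against 112 and 108, but 2 clusters held 43.0% and 40.0% of the coverage, and on cluster numbers its fold of 3.3 became -0.83. NOSTRIN, a regulator of nitric oxide synthase traffic, had 152 from 79 clusters against 14.5 and 14.6. The lowest was HS3ST4, a heparan sulfate sulfotransferase, with 5.80 against 162 and 178 and a fold of -4.70 ± 0.17 (limma adjusted p = 0.00126). SMAD6, an inhibitor of BMP signalling, had 11.5 against 102 and 98.5, LAPTM4B, a lysosomal membrane protein, 35.4 against 293 and 280, and GPR176, a receptor, 5.13 against 45.5 and 43.1.

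**Figure D4:**
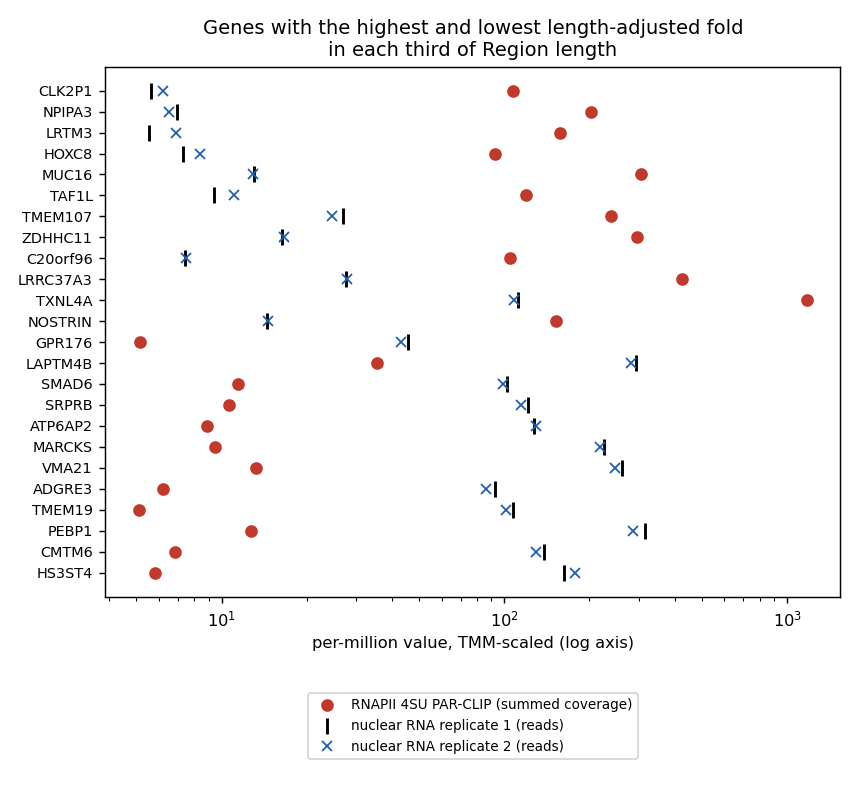
Per-million values in each library (log axis) for the 12 genes with the highest and the 12 with the lowest length-adjusted fold by length class. The RNAPII 4SU PAR-CLIP values (red points) lie right of both nuclear RNA replicates (black bars and blue crosses) in the upper 12 genes and left of both in the lower 12, and the RNA replicates lie close together.

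A few folds rested on very deep narrow clusters. SLC25A43, a mitochondrial carrier gene, had 2291 per-million units in the 4SU library from 3 clusters against 1.07 and 1.02, and its fold of 10.02 was 1.79 on cluster numbers. It was tested only because of its 4SU value, so it had to differ. In DLG2, a postsynaptic scaffold gene, clusters of 19 and 12 bases at 85195163 to 85195181 and 85195104 to 85195115 of chromosome 11 (hg19) held 55.5% and 37.4% of the coverage. Its value was 1130 against 40.2 and 38.0, and its fold of 4.85 became 0.45 on cluster numbers. In PHC1 PAR-CLIP replicates 1 and 2 DLG2 had 27900 and 5069 per-million units. Among the 1931 genes called higher, 153 (7.92%) had over 50% of their coverage in 1 cluster. Families of near-identical copies, listed after values were seen, had 40 higher and 2 lower of 69 genes tested.

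At the other extreme 89 tested genes had no 4SU cluster at all. They entered only through their nuclear RNA and so had to be lower, and 84 of them passed the call rule. ZCCHC12, a zinc finger coactivator, had 0 in the 4SU library against 61.9 and 60.7 in nuclear RNA, from 3524 and 3615 reads. SHISA2 had 0 against 47.3 and 46.7, and GSTP1, a glutathione transferase, 0 against 26.9 and 24.7. A gene without a cluster had no site that passed the authors' calling, whose limits are not given in the sources used here, so 0 is not a count of no reads. All 3 also had 0 in the 6SG library.

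Other readouts of the genes were set beside the calls of both fits. The 1605 higher genes had a median of 12.9 clusters per 10 kb of Region, against 3.47 in the 1657 lower genes and 8.27 in all genes tested, at a median mean coverage of 39.5, 20.3 and 28.1. These are the same library and describe the calls. In the 6SG library, whose cells took up another nucleoside, the medians were 78.0, 0 and 27.0 per-million units, and 19.1%, 53% and 31.6% of the genes had no 6SG cluster. In PHC1 PAR-CLIP replicate 1, a different protein, the medians were 98.4, 14.3 and 40.0, and in replicate 2 they were 93.0, 14.2 and 38.7. The order was thus the same in every PAR-CLIP library, but the calls also select on 4SU coverage itself, with medians of 122, 11.2 and 45.2. The PHC1 pair was moreover part of the fit, so the shared order is no independent support for the calls.

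RNAPII measured on DNA did not order the genes that way. The authors' ChIP score for RNAPII at the start site had a median of 9.18 in the higher genes, 9.75 in the lower genes and 10.7 in all. For H3K4me3, a mark of active starts, the medians were 42.4, 43.2 and 47, and for H3K27me3, the Polycomb mark, -1.71, -1.81 and -1.89. The ranges between the quartiles overlapped for all 3, but the lower quartiles differed more than the medians. For H3K4me3 the lower quartile was 3.95 in the higher genes, 28.1 in the lower genes and 29.1 in all, and for RNAPII it was 2.23, 4.27 and 4.86. The higher genes thus had close medians but included more genes with little of either signal at the start site, and ChIP over gene bodies was not analysed here.

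**Figure D5:**
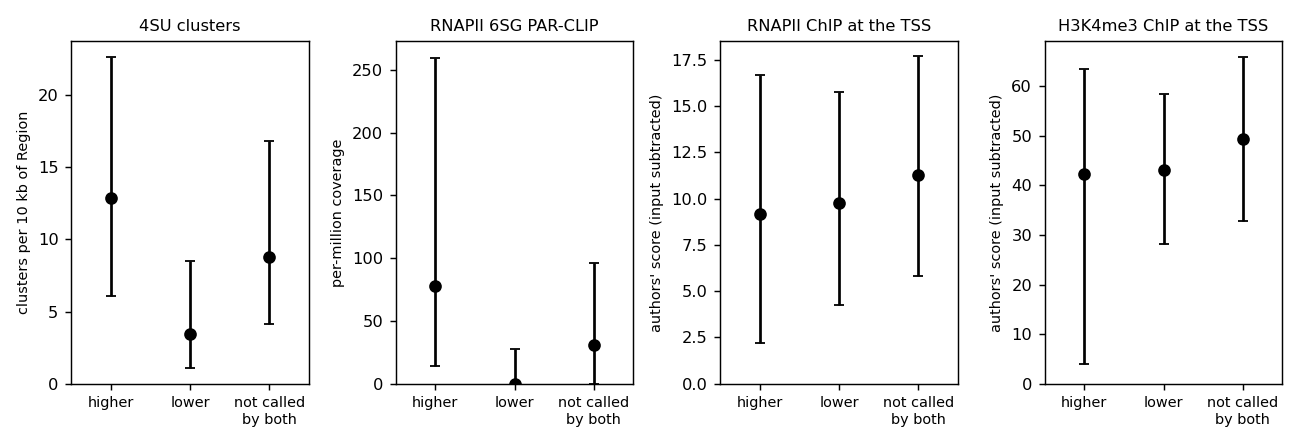
Readouts for genes called higher and lower by both fits and for the other tested genes: 4SU clusters per 10 kb, RNAPII 6SG PAR-CLIP per-million coverage, and the authors' ChIP scores of RNAPII and H3K4me3 at the start site. Points are medians and bars the quartiles over genes, and the higher and lower genes are far apart for 6SG at 78.0 and 0 but close for the median of RNAPII ChIP at 9.18 and 9.75, while the lower quartile of H3K4me3 is 3.95 in the higher genes and 28.1 in the lower genes.

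Promoters are shown for 5 genes, the highest member of the splicing regulator, mitosis and zinc finger lists and the lowest of the respiratory chain and ribosomal protein lists among those with an entry in the RefSeq table, so that start sites of genes with high and low folds can be compared. Each runs from 250 bases before to 50 after the start in GRCh38.p14, 5′ to 3′ along the gene, with motif matches in capitals. SRRM1 lies at chr1:24643052-24643351 on the plus strand, CENPE at chr4:103198294-103198593 on the minus strand, ZNF865 at chr19:55605397-55605696 on the plus strand, SDHD at chr11:112086623-112086922 on the plus strand and RPS27L at chr15:63157428-63157727 on the minus strand. The first 3 had high folds and the last 2 low folds. SDHD and RPS27L were tested only because of their nuclear RNA values. ZNF865, the fourth highest of the zinc finger genes, had 16.3 per-million units in the 4SU library against 3.46 and 3.23 in nuclear RNA and a fold of 2.88, and it was tested only because of its 4SU value.
SRRM1: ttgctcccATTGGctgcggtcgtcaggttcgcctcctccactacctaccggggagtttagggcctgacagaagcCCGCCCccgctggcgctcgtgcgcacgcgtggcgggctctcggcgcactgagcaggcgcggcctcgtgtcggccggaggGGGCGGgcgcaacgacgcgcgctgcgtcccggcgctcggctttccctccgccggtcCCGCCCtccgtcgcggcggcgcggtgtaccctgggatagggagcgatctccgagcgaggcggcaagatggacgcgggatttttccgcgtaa
CENPE: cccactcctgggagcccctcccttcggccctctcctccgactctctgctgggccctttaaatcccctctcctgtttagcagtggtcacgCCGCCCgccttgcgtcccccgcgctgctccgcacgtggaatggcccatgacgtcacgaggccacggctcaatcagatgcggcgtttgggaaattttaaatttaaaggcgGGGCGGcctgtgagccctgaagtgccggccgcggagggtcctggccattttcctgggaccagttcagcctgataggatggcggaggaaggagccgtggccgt
ZNF865: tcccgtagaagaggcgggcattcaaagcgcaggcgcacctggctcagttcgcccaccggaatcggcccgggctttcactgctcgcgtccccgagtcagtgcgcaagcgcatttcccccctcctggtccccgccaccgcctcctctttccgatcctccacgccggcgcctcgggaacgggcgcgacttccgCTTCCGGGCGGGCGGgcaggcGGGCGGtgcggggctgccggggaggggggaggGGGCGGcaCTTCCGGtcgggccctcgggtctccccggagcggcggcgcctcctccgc
SDHD: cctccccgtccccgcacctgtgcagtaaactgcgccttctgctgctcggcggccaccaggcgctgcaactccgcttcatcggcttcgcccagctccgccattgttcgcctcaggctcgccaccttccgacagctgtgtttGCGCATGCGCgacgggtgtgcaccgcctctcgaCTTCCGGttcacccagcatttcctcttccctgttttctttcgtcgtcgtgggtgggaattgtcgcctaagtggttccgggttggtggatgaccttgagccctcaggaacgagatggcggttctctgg
RPS27L: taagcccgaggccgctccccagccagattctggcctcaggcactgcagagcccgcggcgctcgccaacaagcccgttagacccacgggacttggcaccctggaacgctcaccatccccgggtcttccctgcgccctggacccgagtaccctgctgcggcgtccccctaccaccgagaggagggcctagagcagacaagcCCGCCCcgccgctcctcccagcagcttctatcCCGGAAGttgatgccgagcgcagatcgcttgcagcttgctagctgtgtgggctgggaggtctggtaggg

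Motifs were searched on both strands and matches may overlap. The TATA box was searched as TATAAA and the CCAAT box by its own letters. The site of ETS factors was searched as CCGGAAG, that of NRF1 as GCATGCGC, that of YY1 as AAGATGGC and that of SP1 as GGGCGG. SRRM1 held 1 CCAAT and 3 SP1 matches, CENPE 2 SP1 matches, ZNF865 2 ETS and 4 SP1 matches, SDHD 2 overlapping NRF1 matches and an ETS match, and RPS27L an SP1 and an ETS match. Of the 7173 tested genes with a promoter in the table, the ETS letters were in 20.6% of the higher genes, 13.8% of the lower genes and 19% of all tested, against 10.7% of all 27305 promoters. They were in 41.7% of the zinc finger genes. The NRF1 letters were in 6.19% of the higher and 4.02% of the lower genes, 5.67% of all tested and 3.27% of all promoters. The YY1 letters were in 6.43% of the higher and 3.18% of the lower genes, against 5.4% of all tested and 3.03% of all promoters. The SP1 letters were in 66.4%, 73.6%, 71.0% and 44.6%, TATAAA in 5.46%, 5.91%, 5.24% and 12.0%, and CCAAT in 37.5%, 37.0%, 37.2% and 35.7%. The median GC content was 64.0% in the higher and 67.0% in the lower genes. Both ends of the list thus had mostly GC-rich starts without a TATAAA, and a match says only that the letters are there.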

How the data were processed

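RNAPII 4SU PAR-CLIP (1 library) was compared with nuclear RNA (2 libraries). Per the submitters' processing notes, build hg19 was used, with Bowtie 0.12.7, SAMtools 0.1.19 and R 3.1.0 for the RNAPII PAR-CLIP and TopHat2 2.0.11 for RNA-seq. The cluster caller, its conversion filter, the RNA counter and whether introns were counted are not given in the sources used here. The deposited PAR-CLIP files give a signal, the mean read coverage of each cluster, and the deposited RNA table gives whole read counts per gene. The authors' own RNA column, in another unit, tracked log2 reads per kb of Region and was used for that check alone. The deposited ChIP table gives a score per start site, by the authors a scaled read number minus input.

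Signal times cluster length, a whole number in 100% of clusters within 0.001, was summed per Region over clusters of either strand, since the table gives no gene strand. Regions did not overlap each other. Both measures were put on a per-million scale with TMM factors (edgeR 4.0.16) and compared as log2(value + 1), so folds of low genes are understated. limma 3.58.1 (R 4.3.3) was used with trend and robust moderation on the 4SU, PHC1 PAR-CLIP and RNA libraries. The lone 4SU library was assumed to vary like the PHC1 and RNA pairs, the PHC1 cells carry a PHC1 transgene, and the 2-sided p-values reflect variation among these libraries alone, possibly technical. Length adjustment took a lowess trend (span 0.3) of the fold over log2 Region length out of the 4SU values before the same fit. The design allowed for edgeR and DESeq2 1.42.0 only on cluster numbers, because summed coverage is no read count. On simulated data of 8439 genes for the length-adjusted comparison, 72 of 100 4-fold and 88 of 100 8-fold changes were recovered, and 31 of 8239 unchanged genes were called. The simulated 4SU library was given the spread of the PHC1 pair. Its unchanged genes differed from nuclear RNA only by the length trend and noise. These rates therefore do not measure wrong calls in the real comparison, where the spread of 4SU is unknown and the assays differ.

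Symbols and gene types came from RefSeq through Entrez numbers, with 14378 of 14432 genes found (GRCh38.p14), and its promoters are the sequences shown. Named genes were the 4 highest and 4 lowest per class of Region length among genes called by both fits with at least 5 clusters, at most 50% of coverage in 1 cluster and a per-million value of at least 5 in each library, the top, middle and bottom member of each list, and fixed anchors. The anchor TXNIP was not analysed here, and some genes the rule names are not reported here. The members and lists were chosen with earlier results of these data known. Alternatives covered filter, pseudocount, scaling, length trend, cluster measure, tool and libraries left out.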

Additional observations from a re-analysis of the deposited data

How the results depend on the processing

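The direction and size of the counts held for most settings tried, between 1260 and 1921 genes higher and 1489 and 2870 lower before length adjustment, and between 1403 and 2087 higher and 1299 and 2113 lower after it, leaving aside the settings named next. With limma's treat against a log2 fold of 1, 885 genes were higher and 1003 lower before adjustment, and 922 and 704 after it. With the 6SG library joined to 4SU the counts were 524 and 421, and 1108 and 184. Leaving out 1 library of the nuclear RNA or PHC1 pair gave from 0 to 1849 higher and from 0 to 2372 lower genes, and from 0 to 2067 and from 0 to 1992 after adjustment, the 0 in each case without either nuclear RNA library. Scaling by totals alone instead of TMM shifted the unadjusted split to 1260 higher and 2870 lower, with a median fold of -0.40, and left 1982 and 1804 after adjustment. Spearman's rho of fold and length was 0.227 for genes at the minimum on both sides and with totals alone. The same numbers in the PHC1 and RNA replicates share only a number, since their deviations had a correlation of 0.04 across genes, and with the replicate block 1777 and 2273 genes were called, 1964 and 1855 after adjustment. Without genes of near-identical copies, an alternative chosen after seeing the data, 1700 and 2128 were called, 1891 and 1763 after adjustment.

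Among called genes picked by the rule for named genes, 10 changed sign under some setting, and the cause was not tested. With 6SG joined the folds were 0.66 for ATP6V1G1, 0.021 for HK2, -0.67 for INSIG2, 0.16 for NSDHL and 0.24 for SNRPD2. On cluster numbers, covered bases, edgeR and DESeq2, in that order, they were -0.45, -0.32, -0.43 and -0.43 for EIF2S2, -0.055, -0.0027, -0.051 and -0.0497 for KIF2A, -1.54, -0.91, -1.54 and -1.52 for MALAT1, -0.53, -0.078, -0.51 and -0.49 for MYC, and -0.83, -1.01, -0.84 and -0.83 for TXNL4A. The number of gene lists whose median changed sign was 9 of 30 on cluster numbers and 8 on covered bases. Giving clusters to every Region that holds them, or keeping only Regions that overlap no other, changed nothing because no Regions overlap.

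The depth of the 4SU library limits genes with few clusters, since 1 library carries that side, and the 6SG library, with 45259 clusters, is too shallow to stand in for a replicate of most genes.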
